A study of Mus musculus with 6 samples.

Results

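The genes described here act at the branch point of pyruvate and lactate. They are the pyruvate dehydrogenase kinases PDK1, PDK2, PDK3 and PDK4, the dehydrogenase subunit PDHA1, the bifunctional enzymes PFKFB1, PFKFB3 and PFKFB4, and the lactate transporters SLC16A1 and SLC16A3. They were chosen by name, and every probe whose target name in the array file is one of these 10 names, ignoring case, was kept on its own. All 10 names were found, with 13 probes among the 45281 probes and 30854 target names of the array.

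Pyruvate made by glycolysis can enter the mitochondria, where the pyruvate dehydrogenase complex turns it into acetyl-CoA, or it can be reduced to lactate and leave the cell. The PDK kinases close the first route by phosphorylating PDHA1, the catalytic subunit of the complex, and PDP phosphatases open it again. In skeletal muscle PDK4 is known for its induction during fasting and fat oxidation, when glucose is spared. The PFKFB enzymes make and break down fructose 2,6-bisphosphate, an activator of phosphofructokinase and thus of glycolysis. SLC16A1 and SLC16A3 carry lactate and other monocarboxylates together with protons across the plasma membrane, SLC16A3 being the form known for lactate export from glycolytic muscle.

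C2C12 is a mouse myoblast line that forms multinucleated myotubes once serum is reduced. Myoblasts received 60 nM of either scramble siRNA or siRNA directed at *Dj1* (*Park7*), which encodes the antioxidant protein DJ-1, were moved to differentiation medium after 48 h and were kept there for 96 h. Each group has 3 samples (Scramble and siDJ-1 replicates 1 to 3), and total RNA of each was hybridized to its own array on a single Illumina mouse BeadChip. The labels number the replicates without saying how the cultures were separated, so the p-values measure only the spread between these samples. With 1 siRNA treatment per group, what follows from the loss of DJ-1 and what follows from siRNA acting on other transcripts cannot be told apart.

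The probe signals were deposited as mean intensities over beads, with a detection p-value that sets each probe against the negative controls of its array. A probe is called detected here when this p-value is under 0.05. In the scramble arrays 16985, 17399 and 18179 probes were detected, and in the siDJ-1 arrays 18704, 18857 and 18408. The lowest signal of any detected probe was 186.8, 187.4 and 167.2 in the scramble arrays and 171.3, 176.8 and 161.6 in the siDJ-1 arrays, so a dim probe needed more signal to be detected in Scramble replicates 1 and 2 than in any siDJ-1 array. Signals were background corrected, quantile normalized and converted to log2. With limma, 17890 probes, those with detection on 3 or more of the 6 arrays, were tested, and p was adjusted over all of them by the Benjamini-Hochberg method. A probe is called when its adjusted p is under 0.05.

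The knockdown was examined first. *Dj1*, listed as PARK7 with 1 probe (ILMN_2728754), had deposited signals of 12019.5, 10900.4 and 12251.4 in the scramble arrays and 5934.8, 6585.5 and 4233.7 in the siDJ-1 arrays. The groups did not overlap, and limma put the log2 fold change at -1.16 with a standard error of 0.14 (adjusted p = 0.00344).

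Of the 13 member probes, 5 were detected on all 6 arrays, 1 on 4 arrays, 2 on 1 array and 5 on none. The filter kept 6 probes, 1 each of PDK1, PDK2, PDK3, PDK4, PDHA1 and PFKFB4, while no probe of PFKFB1, PFKFB3, SLC16A1 or SLC16A3 was kept. After *Dj1* knockdown the probe of Pdk4 was called higher, and that of Pdk2 met the same threshold with the limit given below. Across the array 30.1% of the tested probes were called, 16.5% higher and 13.6% lower, beside 2 of 6 member probes (33.3%). Of these 2, Pdk2 was detected on 1 scramble array and 3 siDJ-1 arrays and so entered the test through the group in which it is higher. Its call therefore does not decide whether Pdk2 changed, and the stricter filter leaves Pdk4 as the 1 called member. None of the 6 was called lower by limma, and 0 were lower at an unadjusted p under 0.05. The groups did not overlap for 3 member probes of 6, beside 48.5% of all tested probes. The median log2 fold change of the 6 member probes was 0.23, with 5 of the 6 above 0, against a median of 0.05 over all tested probes. This median and both counts include Pdk2, whose probe entered through the siDJ-1 group, so they are not read as a result. Under the stricter filter, which removes Pdk2, the member median was 0.18, against 0.003 over all probes kept. The member median was 0.36 without Scramble replicate 1 and 0.13 without Scramble replicate 2. With no filter, over all 13 member probes, it was 0.06, against 0.0003 over all probes of the array. The counts of calls cover the tested probes and not all members.

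**Figure D1:**
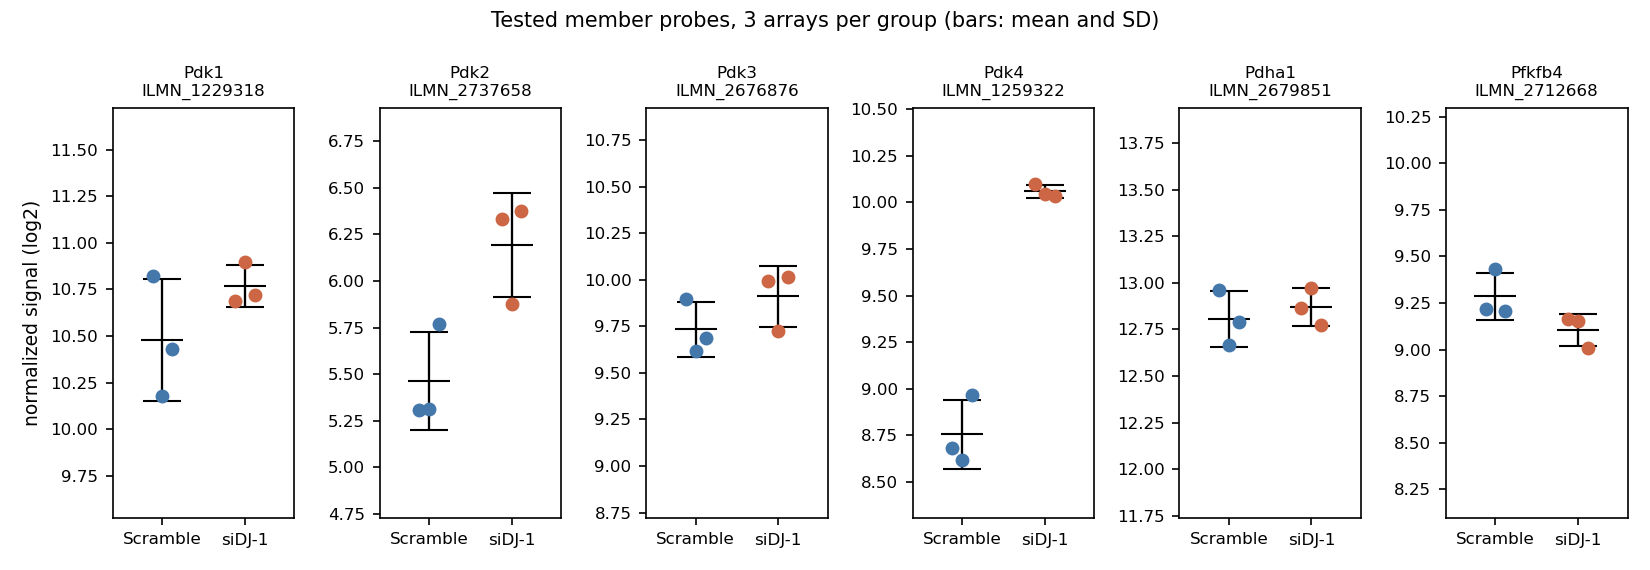
Normalized log2 signal of the 6 tested member probes. Each point is 1 array, with Scramble on the left and siDJ-1 on the right, black bars give the mean and SD of 3 arrays, and all panels span the same log2 range around their own level, so that heights can be compared as changes and not as levels. The 3 siDJ-1 arrays of Pdk4 lie between 10.03 and 10.10, above the scramble arrays at 8.62 to 8.97.

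Pdk4 rose after *Dj1* knockdown. Its probe (ILMN_1259322) had deposited signals of 567.1, 553.5 and 619.6 in the scramble arrays and 1229.5, 1303.8 and 1034.3 in the siDJ-1 arrays. Every siDJ-1 array was thus well above every scramble array. On the normalized log2 scale the levels were 8.68, 8.62 and 8.97 in scramble and 10.10, 10.05 and 10.03 in *Dj1* knockdown myotubes, with means of 8.76 ± 0.18 (SD, n = 3) and 10.06 ± 0.03 (SD, n = 3). The knockdown arrays lay close together, and the difference between the groups exceeded the spread within either of them. In limma this was a log2 fold change of 1.30 with a 95% confidence interval of 1.02 to 1.59 (standard error 0.12, adjusted p = 0.00277), a 2.47-fold rise with an interval of 2.03 to 3.01. By the two-sided exact permutation test p was 0.1, the smallest that 3 arrays against 3 allow. Pdk4 was called under all 13 alternatives tried, at log2 fold changes of 1.08 to 1.41. Between 32 and 49 beads carried the Pdk4 probe on each array, with a standard error over beads of 25.6 to 62.1 in signal units, while the group means differed by 609 of the same units. This bead error covers the measurement on single arrays and not the spread between samples. In these bulk samples more Pdk4 transcript per nucleus and more cells that express it cannot be told apart. A further probe listed as PDK4 (ILMN_1216259) was detected on no array, with signals of 144.5 to 159.2 in scramble and 144.2 to 167.2 in knockdown myotubes, so it gave no measurement of the change.

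Pdk2 encodes a kinase isoform found in most tissues, and its probe (ILMN_2737658) lay near the detection limit. Deposited signals were 174.7, 178.5 and 179.9 in the scramble arrays, of which only replicate 3 was detected, and 213.2, 198.5 and 198 in the siDJ-1 arrays, all of which were detected. The groups did not overlap, but their means differed by 25.5 signal units with standard errors over beads of 7.75 to 16.8 on single arrays. The normalized log2 levels were 5.31, 5.31 and 5.77 in scramble and 6.33, 5.87 and 6.37 in knockdown myotubes. The probe passed the filter through the siDJ-1 group, and 2 of its scramble values are not above background, so the size of the difference is uncertain. For the same reason the limma test cannot decide whether Pdk2 changed, and its values describe the fit and are not an exact fold. The fitted difference was 0.73 on the normalized log2 scale, with a 95% confidence interval of 0.28 to 1.19 (standard error 0.19, limma adjusted p = 0.0301). This met the threshold for a call. This call was not stable. It was lost without Scramble replicate 1 (0.67, adjusted p = 0.0664), without Scramble replicate 2 (0.66, adjusted p = 0.083), without siDJ-1 replicate 1 (0.65, adjusted p = 0.1) and without siDJ-1 replicate 3 (0.64, adjusted p = 0.102). The fitted Pdk2 difference was 0.24 when no background was corrected (limma adjusted p = 0.0523). It was 0.63 when arrays were shifted to a common 75th percentile after background correction (limma adjusted p = 0.051). Over the 12 alternatives that kept the Pdk2 probe, the adjusted p ran from 0.0239 to 0.102 and 4 called it. The part that the unequal detection limits of the arrays play in this call was not tested.

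**Figure D2:**
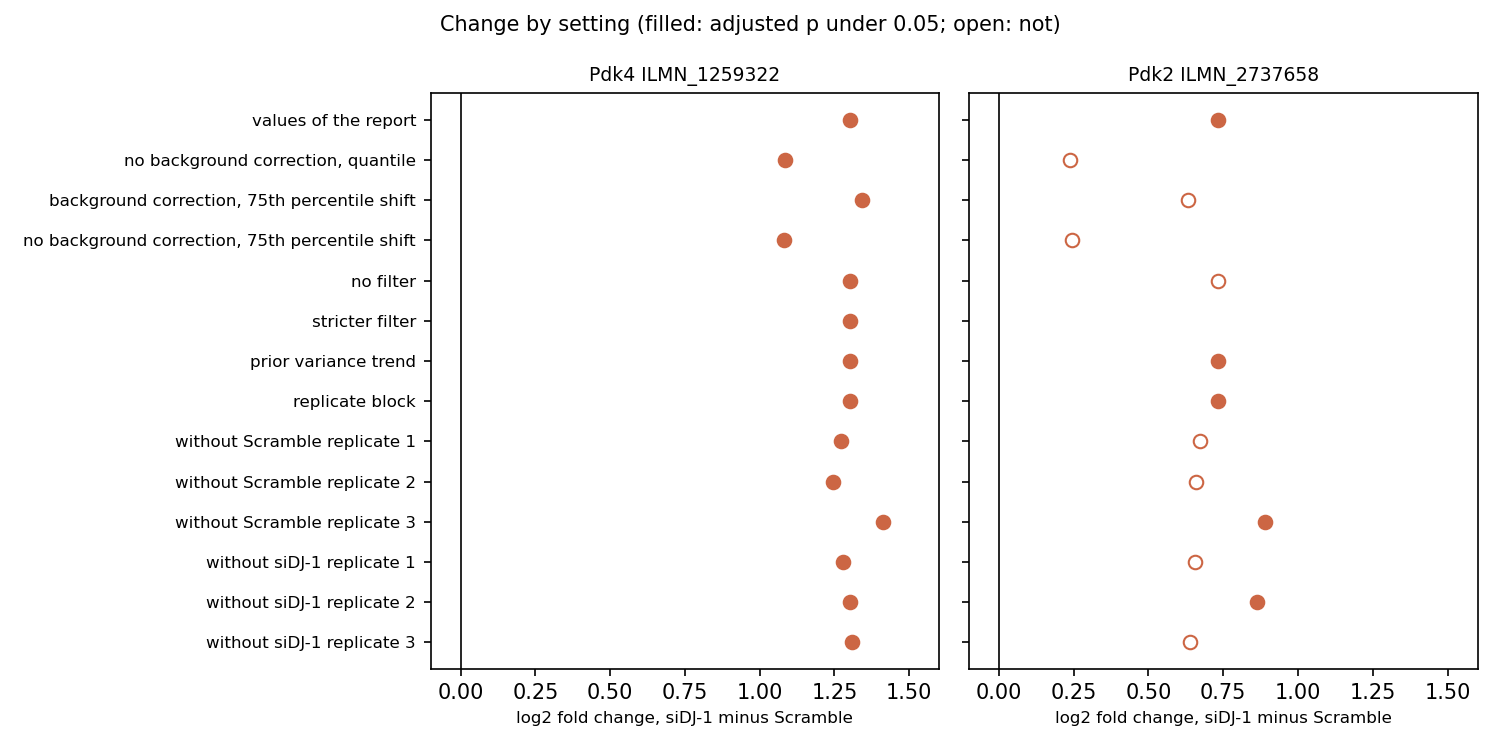
Log2 fold change of Pdk4 and Pdk2 (siDJ-1 minus Scramble) under the reported processing and each alternative. Filled points have an adjusted p under 0.05, open points do not, and Pdk2 has no point under the stricter filter, which removes its probe. Pdk4 is filled throughout and Pdk2 in 4 of 12 alternatives.

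The other kinases were not called. The Pdk1 probe (ILMN_1229318) had log2 levels of 10.82, 10.18 and 10.43 in scramble and 10.69, 10.90 and 10.72 in knockdown myotubes. Scramble replicate 1 lay among the siDJ-1 arrays, and limma did not call the difference of 0.29, whose 95% confidence interval is -0.13 to 0.71 (standard error 0.18, adjusted p = 0.251). Without that array it was 0.47 and called (adjusted p = 0.0469), and over the 13 alternatives the adjusted p of Pdk1 went up to 0.551. For Pdk3 (ILMN_2676876) the levels were 9.90, 9.62 and 9.69 against 9.99, 9.72 and 10.01, again with overlap. The Pdk3 difference of 0.18 (95% confidence interval -0.13 to 0.49, adjusted p = 0.341 from limma) was called under none of 13 alternatives and ran from 0.12 to 0.27 with 1 array left out.

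Promoter sequences of Pdk4 and Pdk2 are shown because these are the members called under the reported processing, Pdk4 in all 13 alternatives and Pdk2 in only 4 of 12 and through a probe near the detection limit. They come from the RefSeq promoter table of GRCm38.p6, which holds all 10 member genes with 16 windows, each from 250 bases before to 50 bases after a gene start. Capitals mark ACGTG or GCGTG on either strand, the core letters of the element that hypoxia-inducible factors (HIF) bind. The window of Pdk4 is chr6:5496229-5496528 on the minus strand and holds 1 match, whose first letter is 71 bases before the start. The window of Pdk2 is chr11:95041322-95041621 on the minus strand and holds 2 overlapping matches, from 126 and 125 bases before the start, and a further Pdk2 window holds none.
Pdk4: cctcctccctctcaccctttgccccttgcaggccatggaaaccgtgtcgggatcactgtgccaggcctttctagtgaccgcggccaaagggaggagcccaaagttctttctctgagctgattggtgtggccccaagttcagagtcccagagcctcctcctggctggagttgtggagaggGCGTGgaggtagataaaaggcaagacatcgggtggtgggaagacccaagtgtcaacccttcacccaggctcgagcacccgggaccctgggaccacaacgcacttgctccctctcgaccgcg
Pdk2: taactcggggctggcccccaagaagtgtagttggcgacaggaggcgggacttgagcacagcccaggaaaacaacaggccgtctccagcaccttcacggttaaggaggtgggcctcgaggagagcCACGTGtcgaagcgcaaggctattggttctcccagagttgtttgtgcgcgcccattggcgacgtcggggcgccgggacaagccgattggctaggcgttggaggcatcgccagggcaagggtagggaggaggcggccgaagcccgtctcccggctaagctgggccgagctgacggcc
These letters were in at least 1 window of each of the 10 members and in 11 of the 16 windows, and in 43.8% of the 32851 promoters of the table. They therefore occur in members that were called, not called and not detected alike. The letters TGTTTAC, a core that FoxO factors bind, were in 0 of the 16 member windows and in 3.65% of all promoters. A match is a description of the letters and not a binding site.

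The target of the kinases was not called. Pdha1 (ILMN_2679851), the X-linked form of the catalytic subunit, had log2 levels of 12.96, 12.67 and 12.79 in scramble and 12.86, 12.97 and 12.77 in *Dj1* knockdown myotubes, so the groups overlapped throughout. In limma the Pdha1 difference was 0.06 with a standard error of 0.12 (adjusted p = 0.721) and a 95% confidence interval of -0.22 to 0.34, and it was -0.01 without Scramble replicate 2. With a 75th percentile shift in place of quantile normalization Pdha1 was at 0.22, and over the 13 alternatives its adjusted p was 0.193 to 0.97. The other subunits of the complex and its phosphatases had 9 tested probes, of which 0 were called by limma in either direction, beside 30.1% of all tested probes. At an unadjusted limma p under 0.05, 2 of the 9 were higher and 0 lower. The log2 differences were -0.17, -0.03 and 0.41 for the 3 probes of the subunit Pdhb, -0.10 for the acetyltransferase Dlat and 0.17 for the dihydrolipoyl dehydrogenase Dld. For the phosphatase Pdp1, which removes the phosphate that PDK enzymes add, it was 0.43 (adjusted p = 0.0502 from limma), just outside the threshold, and 6 of 13 alternatives called it, among them the fit without Scramble replicate 1 (0.54, adjusted p = 0.0289). The Pdp1 range of adjusted p was 0.0166 to 0.144. The phosphatase Pdp2 was at 0.34 by 1 probe and at -0.53 by another, and the regulatory subunit Pdpr was at -0.06, none of them called. With 1 array left out these Pdp2 probes ran from 0.17 to 0.46 and from -0.73 to -0.27, Dld from 0.07 to 0.25, and the Pdhb probes from -0.27 to -0.12, from -0.12 to 0.03 and from 0.26 to 0.51. The Pdp2 probe at -0.53 was at -0.18 or -0.15 without background correction. Pdha2 and Pdhx were detected on no array.

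Further steps of pyruvate use were not called beside the rise of Pdk4. The probe of Ldha, which reduces pyruvate to lactate, had deposited signals of 21906.4, 23192.8 and 22864.6 in scramble and 25007.8, 26933.9 and 25271.5 in knockdown myotubes, which do not overlap. After quantile normalization the groups overlapped, and limma gave a difference of 0.03 (adjusted p = 0.817). With a 75th percentile shift in its place the difference was 0.29 after background correction and 0.24 without it, and over the 13 alternatives the adjusted p of Ldha was 0.0594 to 0.999, called in none. The mitochondrial pyruvate carrier subunit Mpc2 was at 0.04 and pyruvate carboxylase (Pcx) at 0.54, the latter with a 95% confidence interval of -0.30 to 1.39. Without Scramble replicate 1 the Pcx difference was 0.94 and called (limma, adjusted p = 0.0367), and without Scramble replicate 3 it was 0.15 (limma, adjusted p = 0.65, the highest over the alternatives). Without background correction Pcx was at 0.20 or 0.21. No probe was matched to the symbols Mpc1 and Ldhb here, so these genes were not analysed.

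Among the PFKFB members, Pfkfb4 alone had a tested probe. Its probe (ILMN_2712668) had deposited signals of 756, 856.2 and 707.3 in the scramble arrays and 699.9, 762.9 and 563.8 in the siDJ-1 arrays. These overlapped, while the normalized log2 levels of 9.22, 9.43 and 9.21 in scramble and 9.16, 9.15 and 9.01 in knockdown myotubes did not, with all siDJ-1 arrays lower. For Pfkfb4 limma gave a difference of -0.18 with a 95% confidence interval of -0.44 to 0.08 (standard error 0.11, adjusted p = 0.256), called under none of 13 alternatives. With 1 array left out Pfkfb4 ran from -0.22 without Scramble replicate 3 to -0.11 without Scramble replicate 2. As a ratio the interval runs from 0.737-fold to 1.06-fold. A further probe, matched to Pfkfb4 through RefSeq but listed as C230090D14, is outside the members and was detected on 1 array.

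PFKFB3, the isoform with the highest kinase activity relative to its phosphatase activity, was detected by its probe (ILMN_2860174) on siDJ-1 replicate 1 and on no other array. Its deposited signals were 135.9, 171.5 and 124.9 in scramble and 176.9, 170 and 159.1 in knockdown myotubes. On this scale Scramble replicate 2 lay above siDJ-1 replicates 2 and 3, while on the normalized log2 scale the siDJ-1 arrays lay above the scramble arrays, with Scramble replicate 2 and siDJ-1 replicate 2 both at 5.15 when rounded, and 1 detected array does not allow a fold. PFKFB1, the liver and muscle isoform, was detected on no array, with signals of 129.3 to 164.5 and of 133 to 145.9 (ILMN_2667132).

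The enzymes that fructose 2,6-bisphosphate acts on, with Pfkfb2 and Tigar, had 9 tested probes, of which 3 were called higher and 1 lower. That is 44.4% in either direction, beside 30.1% of all tested probes (16.5% higher and 13.6% lower). Both tested probes of the platelet-type phosphofructokinase Pfkp were higher, by 0.66 (adjusted p = 0.00969 from limma) and 0.46 (adjusted p = 0.0338). So was a probe of the liver-type Pfkl (ILMN_2871325), at 0.91 (adjusted p = 0.0184 from limma). This Pfkl probe lay near the detection limit, with deposited signals of 209.2, 194.7 and 180.6 in scramble and 215.9, 262.8 and 242.3 in knockdown myotubes. The stricter filter removed it. The other Pfkl probe, with signals of 5257.6 to 6844.9, was at 0.19 and not called. A probe of the muscle-type Pfkm was lower, at -0.47 (adjusted p = 0.0488), while its other probes were at -0.27 and -0.24 and not called (adjusted p = 0.13 and 0.159). With 1 array left out, the calls at 0.46 and 0.91 held in 2 of 6 fits, with adjusted p of up to 0.117 and 0.0599, and that of the Pfkm probe at -0.47 in 0 of 6, with adjusted p of 0.0571 to 0.126, while the Pfkp probe at 0.66 was called in all 6. The Pfkp probe at 0.46 was at 0.38 without Scramble replicate 2, 0.49 without Scramble replicate 3, 0.41 without siDJ-1 replicate 1 and 0.43 without siDJ-1 replicate 3, and not called. The Pfkl probe at 0.91 was at 0.83 without Scramble replicate 2, 0.87 without Scramble replicate 3, 0.85 without siDJ-1 replicate 2 and 0.75 without siDJ-1 replicate 3, and not called. That Pfkm probe was at -0.57 to -0.34. Without background correction the Pfkl probe at 0.91 was at 0.35. Pfkfb2, the only other PFKFB gene with a tested probe, was at 0.14 (adjusted p = 0.503 from limma), with 0.28 without Scramble replicate 1 and 0.04 without Scramble replicate 3. The muscle fructose bisphosphatase Fbp2 had deposited signals of 242.6, 189 and 175.4 in scramble, all detected, and 156.4, 173.6 and 143.2 in knockdown myotubes, none detected. The groups did not overlap, and the probe passed the filter through the scramble group alone, so no fold is given. Because the probe passed through the scramble group alone, the test cannot decide whether Fbp2 changed, and its calls are not read as a result. The limma fit did not call Fbp2 (adjusted p = 0.0554), while 5 of 12 alternatives did. Among these was the fit without Scramble replicate 1 (limma adjusted p = 0.0351), and over all 12 the limma adjusted p was 0.0283 to 0.161.

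The lactate transporters themselves were at or below the detection limit. SLC16A1 (ILMN_2670091) was detected on no array, with deposited signals of 149.2, 169.6 and 148.9 in scramble and 136.6, 151.2 and 127.5 in *Dj1* knockdown myotubes. SLC16A3 has 3 probes, listed for different transcripts of the gene. Of these ILMN_3149256 and ILMN_3162980 were detected on no array, and ILMN_3163569 on siDJ-1 replicate 2 alone, with a signal of 178.7 there. Over the 3 probes of SLC16A3, signals ran from 121.4 to 184.6 in scramble and from 142.2 to 178.7 in knockdown myotubes, which overlap. A change of either transporter was therefore not detectable with these probes at this signal over background, which does not show that the transcripts are absent or unchanged.

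**Figure D3:**
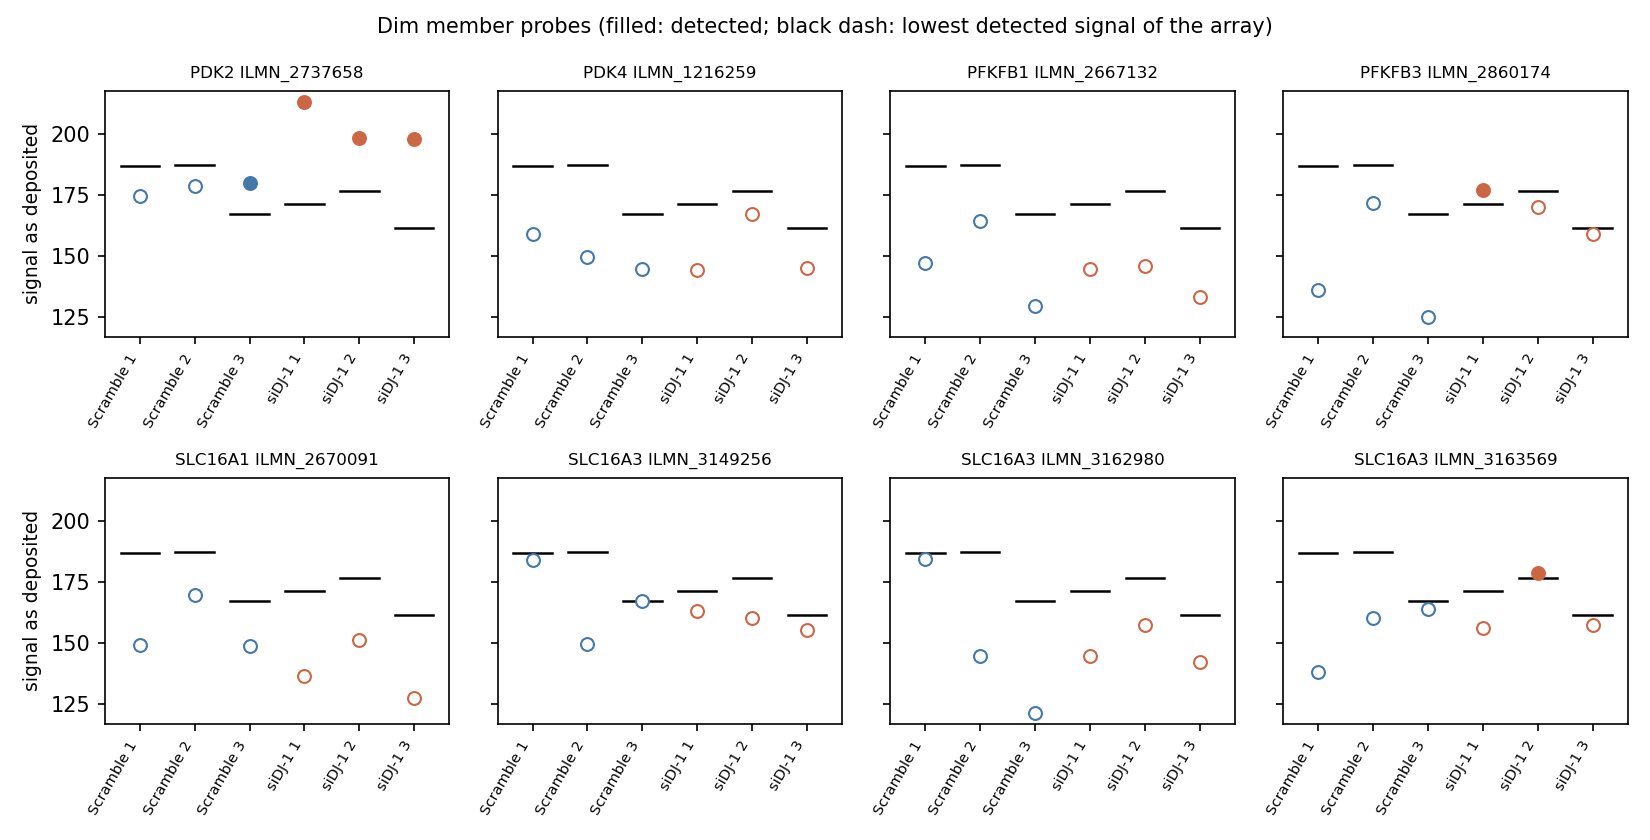
Deposited signal of the 7 member probes that were not tested, and of Pdk2, on each array. Filled points were detected and open points were not, blue is Scramble and orange siDJ-1, and the black dash is the lowest signal of any detected probe on that array. Apart from Pdk2, 2 points of all those shown are filled, 1 of PFKFB3 at 176.9 and 1 of SLC16A3 at 178.7.

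Both transporters need a partner protein to reach the plasma membrane. Basigin (Bsg) is the usual partner of SLC16A1 and SLC16A3, and embigin (Emb) can pair with SLC16A1. The Bsg probe ILMN_1253274 had deposited signals of 178.9, 193.7 and 191.2 in the scramble arrays and 298.3, 279.6 and 310.9 in the siDJ-1 arrays. The other Bsg probe, ILMN_2647835, gave 195.2, 180.2 and 177.5 against 260.3, 256.4 and 299.5. Each was detected on 2 scramble arrays and on all siDJ-1 arrays, and neither overlapped between the groups. By limma they were higher by 1.69 with a standard error of 0.23 (adjusted p = 0.00459) and by 1.53 with a standard error of 0.25 (adjusted p = 0.00691), and both were called under all 12 alternatives that kept them. The size of the Bsg change depends on the background correction, since without it the values were 0.71 and 0.61. Emb moved the other way. Its signals were 1553.9, 1339.6 and 1372.5 in scramble and 1040.5, 1070.7 and 960.7 in knockdown myotubes, a difference of -0.50 in limma with a standard error of 0.11 (adjusted p = 0.017). This call was lost without siDJ-1 replicate 1 (-0.50, adjusted p = 0.0637) and without siDJ-1 replicate 2 (-0.44, adjusted p = 0.0531), the adjusted p over all alternatives being 0.00149 to 0.0637. Slc16a7 was detected on no array and Slc16a8 on 1.

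**Figure D4:**
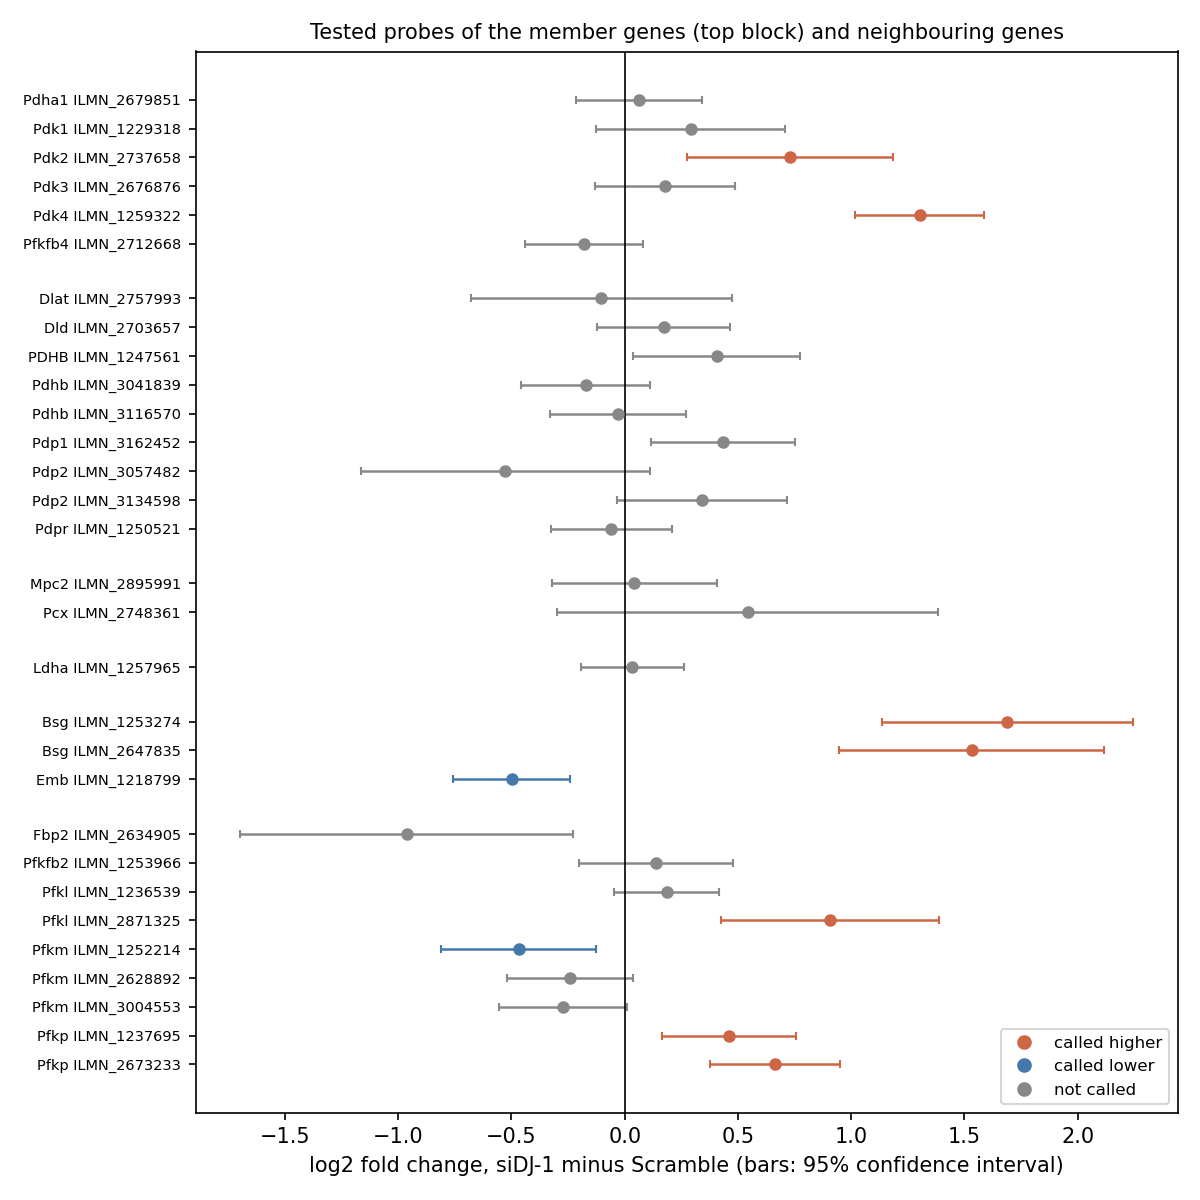
Log2 fold change (siDJ-1 minus Scramble) with its 95% confidence interval from limma, for the 6 tested probes of the members in the top block and the 24 tested probes of neighbouring genes below them. The lower blocks hold, in order, the dehydrogenase complex and its phosphatases, pyruvate entry, lactate dehydrogenase, lactate transport and the fructose bisphosphate enzymes. Orange marks probes called higher, blue those called lower and grey the rest, with Pdk4 at 1.30 and the Bsg probes at 1.69 and 1.53. The probes of Pdk2 and Fbp2 passed the filter through the group in which they are higher, so their values are not exact folds.

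In all, the neighbouring genes had 24 tested probes of 16 genes, of which 5 were higher and 2 lower (29.2%, beside 30.1% of the array), with a median log2 fold change of 0.09. With 1 array left out the higher count ran from 3 to 7 and the lower count from 0 to 2. The higher count was 3 without Scramble replicate 2, Scramble replicate 3 or siDJ-1 replicate 3, and the lower count was 0 without siDJ-1 replicate 1 or 2 and 1 without Scramble replicate 2, Scramble replicate 3 or siDJ-1 replicate 3. The count of called members was 1 without Scramble replicate 2, siDJ-1 replicate 1 or siDJ-1 replicate 3, where Pdk4 was the one called. Without Scramble replicate 1 it stayed at 2, with Pdk1 at 0.47 in place of Pdk2.

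PDK1, PFKFB3, PFKFB4 and SLC16A3 are known targets of HIF. Of these, Pdk1 at 0.29 and Pfkfb4 at -0.18 were not called, and PFKFB3 and SLC16A3 were not tested. HIF targets outside the members had 27 tested probes of 15 genes. Of these probes 12 (44.4%, of 7 genes) were called higher, beside 16.5% across the array (9 to 13 with 1 array left out, 9 without siDJ-1 replicate 1 or 3). Among the 12 were Slc2a1 at 0.56 and Bnip3 at 1.19. By limma or at an unadjusted p under 0.05, 0 were lower. The 15 probes not called included the tested Vegfa probes, at 0.09 and 0.02, and Ankrd37 at -0.26, while 23 of the 27 were above 0. The median of the 27 was 0.40. Bnip3 was dim in scramble, with deposited signals of 197.6, 213.5 and 186.8, and was at 0.50 without background correction. Pdk4 is a known target of the PPAR receptors and of FoxO factors. A list of other such targets had 15 tested probes, of which 6 (of 4 genes) were called higher and 1 lower, beside 16.5% and 13.6% across the array, with a median of 0.27. Of the 3 probes of the ubiquitin ligase Fbxo32, ILMN_2873444 was higher by 1.02 and called under all 13 alternatives. ILMN_2715893 at 0.91 and ILMN_2752994 at 0.84 were called in 9 and 10 of 13, with adjusted p of up to 0.0831 and 0.0684 from limma. The first of these lost its call without Scramble replicate 1 (0.82), Scramble replicate 2 (0.82), siDJ-1 replicate 1 (0.80) or siDJ-1 replicate 3 (0.83), the other without Scramble replicate 2 (0.83), siDJ-1 replicate 1 (0.80) or siDJ-1 replicate 3 (0.69). Without background correction they were at 0.52 and 0.46. The other probes of this list called higher were those of Trim63 at 0.60, Plin2 at 0.48 and Acaa2 (ILMN_2788984) at 0.35. They were called in 9, 7 and 6 of 13 alternatives, and further Acaa2 probes were not called. The lipase gene Lpl was lower, at -0.59, while Angptl4 was at -0.31 and not called. Lpl was called in 5 of 13 alternatives, with an adjusted p of 0.0035 to 0.115. Of the fits with 1 array left out, only that without siDJ-1 replicate 2 called it (-0.74, limma adjusted p = 0.0262). Angptl4 was called without Scramble replicate 1 (-0.44, limma adjusted p = 0.0499) and with the prior variance trend (-0.31, limma adjusted p = 0.0323), and its adjusted p over the alternatives went up to 0.398. With 1 array left out this list had 1 to 5 higher probes, with 1 without siDJ-1 replicate 1 or siDJ-1 replicate 3, 2 without Scramble replicate 2 and 4 without Scramble replicate 3, and 0 lower ones except without Scramble replicate 1 or siDJ-1 replicate 2. Under the reported processing, of all tested probes those whose centred log2 values were most like Pdk4 over the 6 arrays were Mertk, a receptor tyrosine kinase, and Car9, a carbonic anhydrase, with a root mean square difference of 0.06 and 0.09. For Mertk this likeness depends on the processing, since without background correction Mertk was at 0.52 and Pdk4 at 1.08. The Car9 probe (ILMN_1244145) ran from 1.25 to 1.46 over the 13 alternatives.

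Muscle markers moved between the groups as well. Of 16 tested probes of 12 myotube markers, 8 (of 6 genes) were called lower, beside 13.6% of all tested probes, and 0 higher by limma (0 higher at an unadjusted p under 0.05), with a median log2 fold change of -0.47. The summed signal of the list was 230843, 245858 and 221847 in scramble and 196426, 229289 and 172917 in *Dj1* knockdown myotubes, and all 12 markers had a tested probe. Pdk4, Pdk2 and the other members stand beside this shift, and its part in their values was not tested. Of the fibroblast markers 3 probes were tested and 2 were lower, with sums of 4531, 4360 and 4698 in scramble and 3499, 4321 and 3111 in knockdown myotubes. No adipocyte or endothelial marker was tested, with Adipoq, Plin1 and Cidec detected on no array. The single tested immune probe (Cd68) and the 3 tested osteoblast probes were not called by limma (0 and 1 at an unadjusted p under 0.05).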

How the data were processed

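Gene expression was measured in C2C12 myotubes with scramble siRNA (3 samples) or siRNA against *Dj1* (3 samples), grouped by their labels. The authors hybridized labelled RNA to 1 BeadChip, and from its GenomeStudio export deposited for each probe and array the signal intensity (a mean over beads), its standard error and the bead number, neither normalized nor background-subtracted. The deposited detection p-value compares each probe with the negative controls. The number of arrays limits the precision.

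With R 4.3.3 and limma 3.58.1, background was corrected by normexp (offset 16, with control levels estimated through the detection p-values), followed by quantile normalization and log2. Probes detected (p under 0.05) on 3 or more of 6 arrays were fitted with lmFit and eBayes, with Benjamini-Hochberg adjustment over all of them and a threshold of 0.05. The fit was tested on simulated data, where it recovered 117 of 200 changed probes with 5 false calls. There the noise was normal and independent between probes and arrays, and the 200 probes changed by a fixed log2 amount. Background correction and normalization were not repeated, and no effect was shared between probes of an array. Those counts therefore do not measure the false calls in the real arrays. Symbols came from RefSeq (GRCm38.p6), which matched 32345 probes. The probes named are Park7, all member probes, 1 probe matched to Pfkfb4 under another name, tested neighbouring probes that were called with the other tested probes of their genes, those of the dehydrogenase complex and its phosphatases, neighbouring transporter genes with no tested probe, and the 2 nearest patterns of Pdk4. The other genes named (Ldha, Mpc2, Pcx, Pfkfb2, Fbp2, Slc2a1, Bnip3, Vegfa, Ankrd37, Fbxo32, Trim63, Plin2, Acaa2, Lpl, Angptl4 and the markers) were picked from the lists after their values were seen. The members and lists were chosen with earlier results of these data known. Lists are described by counts and medians. The 13 alternatives changed the background correction, the normalization, the probe filter or the variance model, added the replicate number as a block, or left out 1 array.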

Additional observations from a re-analysis of the deposited data

How the results depend on the processing

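Park7 and Pdk4 were called under all 13 alternatives, Park7 at -1.24 to -1.003. Pdk2 was 0.24 with no background correction and quantile normalization, 0.63 with a 75th percentile shift after background correction, 0.25 with this shift alone and 0.73 with no filter, where it was not called, and 0.64 to 0.89 with 1 array left out. Pdk1 was 0.14 to 0.47 with 1 array left out, and Pdha1 -0.00803 to 0.14, with 0.22 under the 75th percentile shift after background correction. The count of higher members was 1 with no background correction, with either 75th percentile shift, with no filter and with the stricter filter, and 1 to 2 with 1 array left out. Of neighbouring probes, 3 were higher with the stricter filter and 3 to 7 with 1 array left out, and 1 was lower with no filter, 5 with the prior variance trend and 0 to 2 with 1 array left out. Across the array 1908 were higher and 1611 lower with no filter, and 1387 to 2859 and 1172 to 2412 with 1 array left out, where fewer samples were compared.

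Direction turned for some uncalled probes. With 1 array left out, Pdpr ran from -0.14 to 0.00209, Mpc2 from -0.0587 to 0.15, Dlat from -0.32 to 0.0917, Ldha from -0.000418 to 0.0796 and a Pdhb probe from -0.12 to 0.0327, the latter also 0.0211 with a 75th percentile shift after background correction. The cause was not tested.

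Same-numbered arrays deviated from their group means with r of 0.05, 0.05 and 0.02, and differently numbered arrays with r from -0.05 to -0.004. These r values are too small to establish a pairing by number. With the replicate number as a block, 2361 probes were higher and 1989 lower, members stayed at 2 higher, and 1 neighbouring probe was lower in place of 2. Low signal over background limits what the arrays show of PFKFB1, PFKFB3, SLC16A1 and SLC16A3.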

Other observations

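Among the scramble arrays the members did not share 1 order. Replicate 1 was highest for Pdk1, Pdk3 and Pdha1, with log2 levels of 10.82, 9.90 and 12.96, while replicate 3 was highest for Pdk4 and Pdk2 and replicate 2 for Pfkfb4. These values were picked out after they were seen. As a median per array, the standard error over beads was 11.3, 8.30 and 8.66 in the scramble arrays and 7.17, 6.36 and 5.88 in the siDJ-1 arrays, and its part in the member calls was not tested.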
